A study of Mus musculus with 13 samples.

Results

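Resting macrophages that lack HDAC3 were compared with control macrophages after IL-4. Of the 13 arrays of the series, 6 belong to these groups by their labels: 3 arrays of HDAC3 KO cells in vehicle (arrays 5, 6 and 7) and 3 arrays of control cells in IL-4 (arrays 9, 10 and 12). The macrophages were grown from bone marrow of male C57BL/6 mice 12 to 16 weeks old, for 6 days in medium with 30% L929-conditioned medium, which supplies macrophage growth factor. KO vehicle cells carried Hdac3 with loxP sites around exons 4 to 7, and Cre under the lysozyme M promoter, which is active in myeloid cells, and received 0.1% bovine serum albumin for 24 hours. Control IL-4 cells carried the same floxed Hdac3 with no Cre and received 10 ng/ml IL-4 for 24 hours. Control vehicle cells (4 arrays), floxed and without Cre, received 0.1% bovine serum albumin for 24 hours, and their values stand beside the compared groups here. The remaining 3 arrays, of KO cells in IL-4, entered the fit and are not described. The compared groups differ in genotype, in Cre and in treatment, so these cannot be told apart in the comparison itself. The labels do not say whether the arrays of a group came from separate mice or cultures, so the p-values rest on the variation among these arrays alone, and that variation may be technical.

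IL-4 acts on macrophages through a receptor made of Il4ra with Il2rg or Il13ra1, which activates the transcription factor STAT6, and the set of genes that follows, among them Arg1, Retnla, Chil3 and Mrc1, is known as alternative activation. HDAC3 is the histone deacetylase of the NCoR and SMRT corepressor complexes, which nuclear receptors and other factors bring to enhancers and promoters. The series asks whether HDAC3 holds back alternative activation, and the comparison here sets the untreated KO state beside the IL-4 state of control cells.

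Many genes of alternative activation were low in KO vehicle cells relative to control IL-4 cells. Retnla was at least 528-fold lower, and Arg1, Chil3, Slc7a2, Irf4 and Socs1 were lower by 3.22 to 5.47 on the log2 scale. Siglecf, Mmp13, Ccl2, Ccr1, Apoc1 and Apoc2 were higher in KO vehicle cells, by 2.60 to 5.12. Ptgs1, Ccl7, Itgax, Clec7a and Egr2 stood above control vehicle in both groups, and Ifit3 and Ifit3b stood below it in both. Most genes did not differ by much, as the scatter of group means shows.

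Each value below is a log2 level, the log2 intensity of a gene's probe minus the log2 of the 75th percentile of its array, and each difference is KO vehicle minus control IL-4. A gene was called where limma's adjusted p (Benjamini-Hochberg over 20546 genes) was under 0.05. By this rule 636 genes (3.10% of those tested) were higher and 569 (2.77%) were lower in KO vehicle than in control IL-4 cells, and 168 (0.818%) and 204 (0.993%) of these differed by at least 2-fold. The 95% interval of the difference lay within 2-fold for 16661 genes (81.1%), of which 550 were called, and 3230 genes were neither called nor bounded in this way. The whole interval lay beyond 4-fold for 12 genes higher and 33 genes lower in KO vehicle cells. The KO vehicle arrays were all above the control IL-4 arrays for 2412 of the 20546 genes and all below them for 2285. Separation of the arrays is thus more common than a call. Without KO vehicle array 5 the counts were 360 higher and 360 lower, without KO vehicle array 6 382 were higher, and without control IL-4 array 12 413 were higher and 361 lower. With slide as a fixed block 487 were higher and 395 lower. With the same rule, KO vehicle cells differed from control vehicle cells in 505 genes higher (2.46%) and 471 lower (2.29%), and control IL-4 cells differed from control vehicle cells in 576 higher (2.80%) and 596 lower (2.90%). These last 2 comparisons share the 4 control vehicle arrays.

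**Figure D1:**
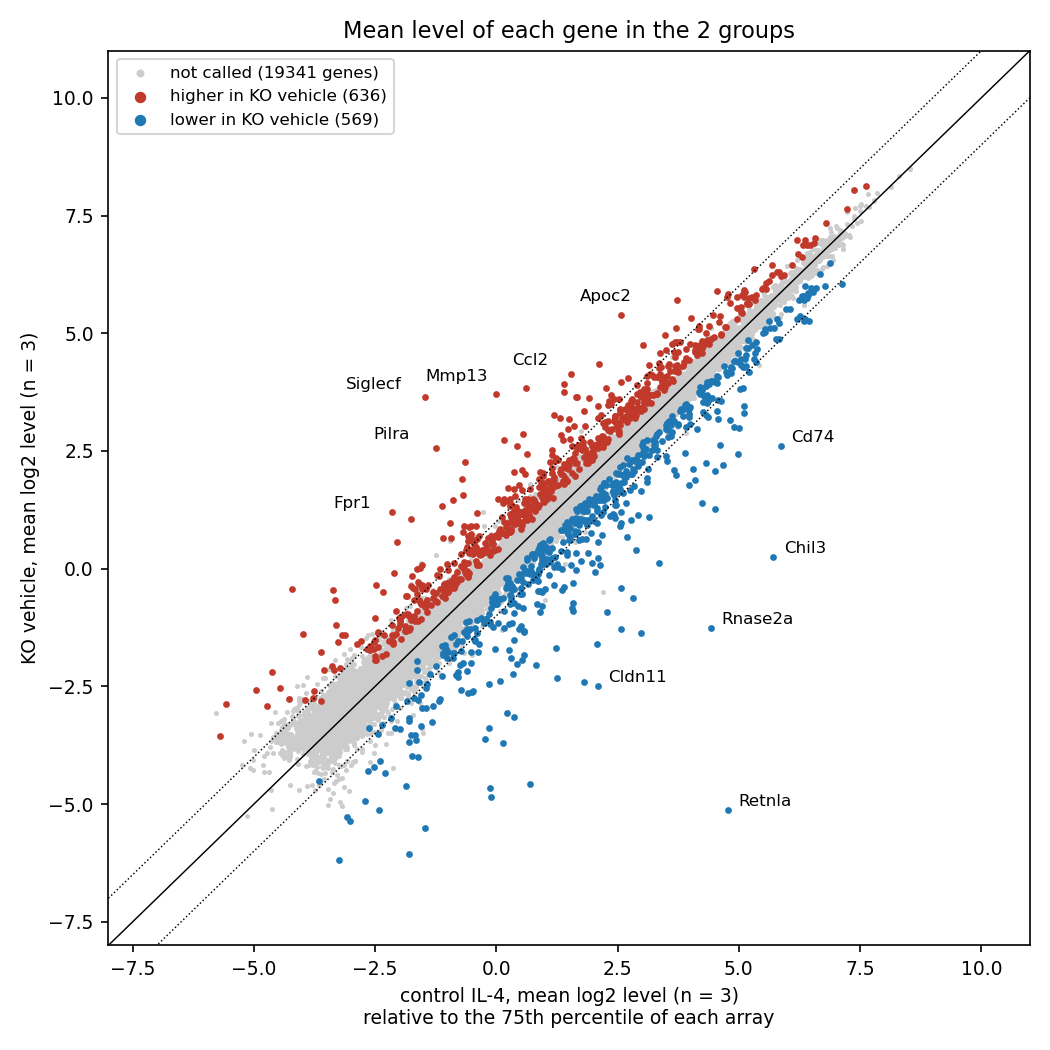
Mean log2 level of each of 20546 genes, with the mean of the 3 KO vehicle arrays on the vertical axis and that of the 3 control IL-4 arrays on the horizontal axis, coloured by limma's call (636 higher and 569 lower in KO vehicle). The dotted lines mark a 2-fold difference; Retnla lies farthest below them, with a difference of -9.90, and Siglecf farthest above, with 5.12.

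The arrays were checked before the genes were compared. Hdac3 read -3.67, -3.12 and -3.46 on KO vehicle arrays 5, 6 and 7, -1.89, -2.28 and -1.80 on control IL-4 arrays 9, 10 and 12, and -2.18 to -1.70 on the control vehicle arrays, so the KO vehicle arrays were below all control arrays, as their label says (difference -1.42, SE 0.233, adjusted p = 0.00322). Where its probe lies relative to exons 4 to 7 was not examined here. Between arrays of different groups the median absolute log2 difference over genes ran from 0.175 to 0.336, against 0.137 to 0.189 within KO vehicle. Within control IL-4 it was 0.149 for arrays 10 and 12 but 0.237 and 0.275 for the pairs with array 9, which stood apart, and without array 9 there were 510 genes higher and 415 lower. Between 70.7% and 77.4% of spots were well above background on KO vehicle arrays, against 68.7% to 74.4% on control IL-4 arrays. Of 25 listed macrophage identity genes 24 were tested, and these were above background on all 6 arrays. A gene was tested only if some group had it above background throughout. Of the 24, 7 were called higher and 3 lower in KO vehicle, against 3.10% and 2.77% of all genes. Cd14 was higher by 2.23 and Itgam by 1.48, and Fcgr2b was lower by 1.68. Among the 14 not called, Adgre1, which encodes F4/80, differed by 0.06 (95% interval -0.17 to 0.28). The growth factor receptor Csf1r differed by 0.20 (-0.02 to 0.42). Marker lists of 11 other cell types were summed in each array. The sums overlapped between the groups for neutrophils (log2 sum 3.17 to 3.82 in KO vehicle and 3.02 to 4.00 in control IL-4), dendritic cells (0.82 to 1.02 and 0.31 to 0.95), T cells (0.61 to 0.84 and 0.76 to 0.84), B cells (-0.09 to 0.41 and 0.18 to 0.38), NK cells (1.02 to 1.19 and 0.79 to 1.07), eosinophils (4.86 to 5.37 and 4.79 to 5.19), mast cells and basophils (-2.35 to -1.96 and -2.24 to -1.63), fibroblasts (2.38 to 2.53 and 2.43 to 2.57) and erythroid cells (0.08 to 0.75 and 0.28 to 0.70). Megakaryocyte markers summed to 4.96 to 5.54 in KO vehicle and 4.20 to 4.85 in control IL-4 arrays, and endothelial markers to 3.27 to 3.46 and 3.55 to 3.69, without overlap, although no single marker of either list was called by limma (3 and 2 had an unadjusted p under 0.05). Of single markers, Klrb1c of the NK list was at least 3.74-fold higher in KO vehicle, with Ncr1 at 0.22, and Cd79b of the B cell list was lower by 0.88. The eosinophil list holds Siglecf, which was higher, and Ccr3, which was lower by 0.50, a call kept under only 9 of 19 alternatives. Their part in the results was not tested.

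Most of the alternative activation genes were lower in KO vehicle cells than in control IL-4 cells. The log2 sum of the list was 7.69 to 8.09 in KO vehicle, 9.07 to 9.26 in control IL-4 and 6.95 to 7.21 in control vehicle arrays. By this sum, to which bright genes contribute most, KO vehicle arrays lay between the other groups. Of 39 listed genes 34 were tested, of which 21 were lower and 1 was higher in KO vehicle cells. Of all genes 2.77% were called lower and 3.10% higher. The median difference of the list was -1.07, against 0.0188 over all genes. Within slides 1 and 2, which hold an array of each group, the median was -1.13 and -1.14. Retnla, which encodes the secreted resistin-like protein RELM alpha, read -4.94, -5.18 and -5.27 on the KO vehicle arrays, against 5.01, 4.52 and 4.79 on the control IL-4 arrays. The probe (chr16:48844447-48844506, mm9) was above background on none of the KO vehicle arrays and on all control IL-4 arrays, and the difference was -9.90 (SE 0.246, adjusted p = 2.44e-09), a value at least 528-fold lower. Another Retnla probe differed by -10.6. The 250 bases before the Retnla start are shown because they hold 1 of the motifs searched, TTCNNNNGAA, a spacing of half-sites that STAT6 binds. The match, in capitals, begins 145 bases before the start (RefSeq, GRCm38.p6, chr16:48842359-48842608, plus strand).
Retnla: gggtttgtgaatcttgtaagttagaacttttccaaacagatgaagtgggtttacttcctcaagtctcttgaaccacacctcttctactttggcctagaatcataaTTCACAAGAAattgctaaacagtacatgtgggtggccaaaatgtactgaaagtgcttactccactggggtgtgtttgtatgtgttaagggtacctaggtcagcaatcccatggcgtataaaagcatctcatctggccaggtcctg
The motif reads the same on both strands. It was present in 5.85% of 32851 windows of this length, or for 6.76% of 27025 genes, and in 4 of the 18 alternative activation genes called lower that have a window, namely Retnla, Clec7a, Pdcd1lg2 and Itgax. A match describes the letters only.

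Chil3, a chitinase-like secreted protein also known as Ym1, read 0.76, 0.80 and -0.84 on the KO vehicle arrays and 6.19, 5.10 and 5.84 on the control IL-4 arrays. The control IL-4 arrays were far above the KO vehicle arrays, which lay near the control vehicle arrays (-0.13 to 1.18), and the difference was -5.47 (SE 0.454, adjusted p = 3.27e-05). Arg1, the arginase that turns arginine into ornithine and urea, read -2.19, -2.44 and -2.33 in KO vehicle, 1.39, 1.41 and 0.94 in control IL-4, and -2.97 to -2.47 in control vehicle arrays. Its difference was -3.57 (SE 0.174, adjusted p = 8.03e-07). Slc7a2, which imports arginine, followed the same order, with -2.35, -2.42 and -2.43 in KO vehicle and 1.68, 1.83 and 1.88 in control IL-4 arrays. All 3 KO vehicle arrays were below all control IL-4 arrays for both genes, as for 2285 of all 20546 genes. Of 17 tested genes of arginine and polyamine metabolism, 4 were lower (Slc7a2, Arg1, the arginine-making enzyme Ass1 at -1.06 and the transporter Slc7a1 at -0.45). The shares of all genes called were 2.77% lower and 3.10% higher. Another Ass1 probe differed by -0.899 and was not called (adjusted p = 0.112). The list held 1 gene called higher, Sat1, at 0.35, and none with slide as a fixed block or without control vehicle array 4, KO vehicle array 5, 6 or 7, or control IL-4 array 9 or 12. As a mean over its probes Sat1 differed by 0.04 (adjusted p = 0.91). Quantile normalization, median scaling, no filter on dim probes and the 6 compared arrays alone lost the call too.

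Irf4, a transcription factor induced by IL-4, read -0.90, -0.99 and -0.88 on the KO vehicle arrays, 2.13, 2.26 and 2.49 on the control IL-4 arrays, and -0.38 to -0.02 on the control vehicle arrays. The KO vehicle arrays were the lowest of the 3 groups, and the difference was -3.22 (SE 0.13, adjusted p = 2.92e-07). Pparg, a nuclear receptor for fatty acid ligands, had the same order, with 1.98, 2.0 and 1.99 in KO vehicle, 3.84, 3.61 and 3.67 in control IL-4 and 2.54 to 2.76 in control vehicle arrays (difference -1.72). Against control vehicle, Irf4 differed by -0.68 in KO vehicle (adjusted p = 0.00725) and by 2.54 in control IL-4, and Pparg by -0.67 (adjusted p = 0.0184) and by 1.05. Batf3, another transcription factor, was lower by 1.91 and the transferrin receptor Tfrc by 1.18 in KO vehicle than in control IL-4 cells. Both lay near control vehicle in KO vehicle cells, at 0.21 and -0.10 from it. Among 27 tested factors of the EGR, KLF, IRF and AP-1 families 8 were lower and 3 higher in KO vehicle cells. Over all genes these shares were 2.77% and 3.10%. Klf4 was lower by 0.84 and Egr1 by 0.92, and Fos was higher by 1.02. Fosl2 differed by -1.20, but its other probe gave 0.14.

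Several eosinophil-associated ribonucleases, secreted RNases clustered on chromosome 14, were low in KO vehicle cells. The list also holds the neighbouring genes Rnase4 and Ang. Of 9 tested members of 13 listed, 7 were lower and none was higher (0 at an unadjusted p under 0.05), with a median difference of -3.38. For comparison, 2.77% of all genes were called lower and 3.10% higher. All 9 were above background on every control IL-4 array but 5 on every KO vehicle array, so some passed the filter through the arrays where they were high, and 4 were called lower when only probes above background on all 6 arrays were tested. Rnase2a read -0.98, -0.94 and -1.86 on the KO vehicle arrays, against 4.57, 3.96 and 4.72 on the control IL-4 arrays, and differed by -5.68 (SE 0.306, adjusted p = 1.8e-06). The arrays of the groups were far apart for it. Ear3 was at least 17.1-fold lower, Ear10 differed by -4.52, Ear1 by -3.85 and Ear6 by -3.38. The probes named Ear3 and Ear10 overlap on the genome and members of the family are close in sequence, so a signal is uncertain as to the member. The 7 may therefore count the same transcript more than once. Rnase4 and Ang, the neighbours counted among the 7, were lower by 1.78 and 0.75. The defining eosinophil genes Epx, Prg2 and Il5ra differed by -0.50, 0.18 and 0.50, and none was called (adjusted p = 0.747, 0.894 and 0.771).

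Receptor chains of the IL-4 pathway differed in both directions, and the feedback inhibitors Socs1 and Cish were lower in KO vehicle cells. Of 15 tested genes of IL-4 receptor and STAT6 signalling 2 were higher and 4 lower in KO vehicle cells. The shares over all genes were 3.10% and 2.77%. Il4ra, the receptor chain that binds IL-4, read 0.42, 0.42 and 0.51 in KO vehicle, against -0.45, -0.91 and -0.49 in control IL-4 arrays (difference 1.07, SE 0.181, adjusted p = 0.00399). The KO vehicle arrays were also above the control vehicle arrays (-0.56 to -0.16), by 0.79 on average. Il13ra1, its partner chain in the receptor for IL-4 and IL-13, was higher by 1.27, although its other probe (0.917) was not called. Il2rg, the other partner chain, was lower by 0.69 (adjusted p = 0.00458), but not called in the 6 compared arrays alone (adjusted p = 0.0644). Stat6 differed by 0.19 (95% interval -0.08 to 0.46). Socs1, an inhibitor of JAK kinases that cytokines induce, read -3.48, -3.08 and -2.62 in KO vehicle and 0.26, 0.25 and 0.13 in control IL-4 arrays, a difference of -3.27. Cish, a related inhibitor, read -2.63, -2.50 and -2.65 in KO vehicle, -0.06, -0.69 and -0.66 in control IL-4 and -5.83 to -4.21 in control vehicle arrays. It was lower by 2.12 in KO vehicle than in control IL-4 cells (adjusted p = 0.00477), and its probe was above background on all KO vehicle arrays and on no control vehicle array.

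C-type lectins, which bind sugars on microbes and glycoproteins, also differed in both directions: 7 of 15 tested were lower and 2 higher in KO vehicle cells. Among all genes 2.77% were lower and 3.10% higher. Clec10a, a galactose-binding lectin, read 1.18, 1.53 and 1.48 in KO vehicle and 4.34, 4.30 and 4.12 in control IL-4 arrays, and its neighbour Mgl2 read -1.79, -2.55 and -1.78 and 0.77, 0.93 and 0.76. Both differed by -2.86, and KO vehicle arrays were below control IL-4 arrays throughout, as for 2285 of all 20546 genes. Mrc1, the mannose receptor CD206, read 4.34, 4.27 and 4.22 in KO vehicle, 5.0, 5.25 and 4.98 in control IL-4 and 3.61 to 3.82 in control vehicle arrays. KO vehicle cells therefore lay between the other groups, lower than control IL-4 by 0.80 (adjusted p = 0.000467) and higher than control vehicle by 0.56 (adjusted p = 0.00432). Clec7a, the beta-glucan receptor Dectin-1, was also intermediate, lower than in control IL-4 cells by 0.65 and higher than in control vehicle cells by 1.38. Clec4n, which encodes Dectin-2, was the member with the largest difference in the other direction, with 1.5, 1.3 and 1.59 in KO vehicle and -0.70, -0.91 and -1.08 in control IL-4 arrays (difference 2.36, adjusted p = 4.83e-06).

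**Figure D2:**
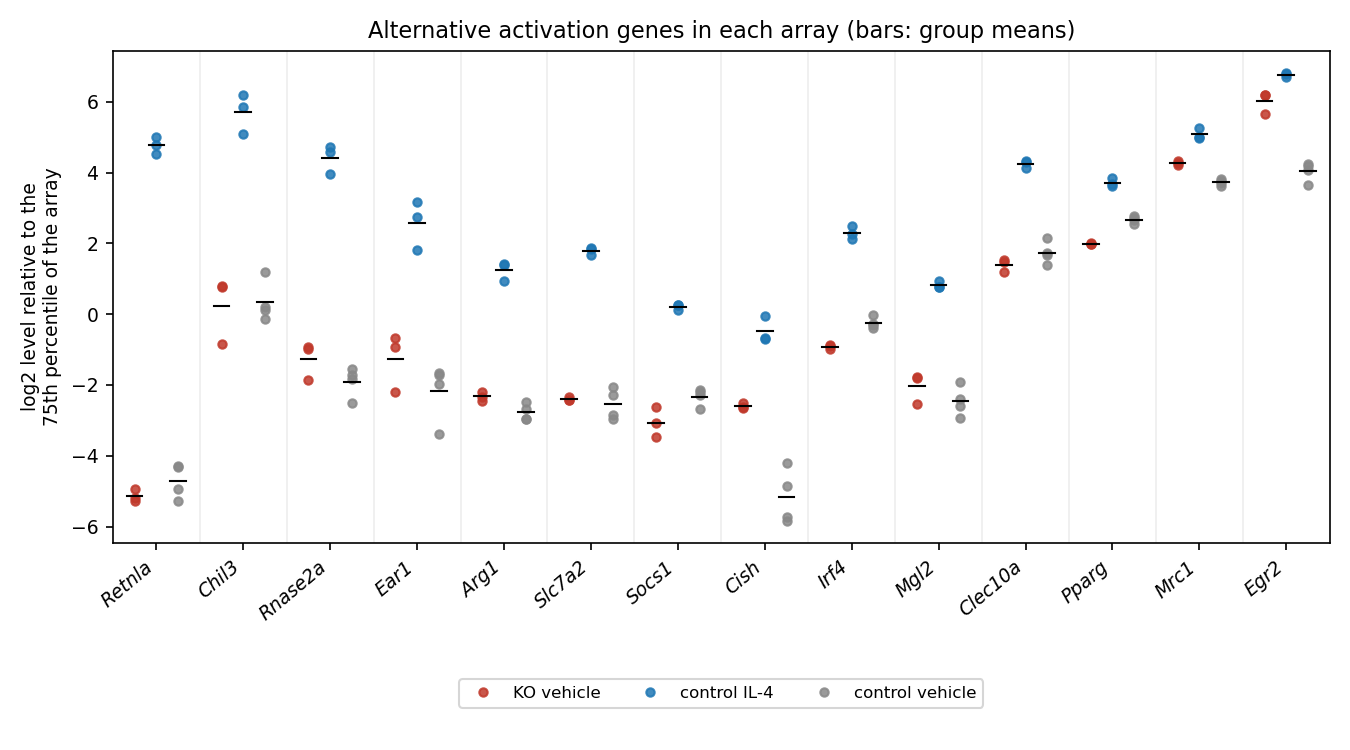
Log2 level of 14 genes of the IL-4 response on each array, with KO vehicle, control IL-4 and control vehicle arrays as points from left to right within each gene. Retnla, Chil3, Rnase2a and Arg1 are low in KO vehicle and control vehicle and high in control IL-4, whereas Mrc1 and Egr2 on KO vehicle arrays lie between the other groups.

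Outside these families, Cldn11, Hebp2, Ppp1r3c, Cst7, Flt1 and Serpina3g had the largest differences among genes lower in KO vehicle cells. All but Serpina3g were also called higher in control IL-4 than in control vehicle cells. Both comparisons use the same 3 control IL-4 arrays, so the overlap is no separate result. Cldn11, a tight junction protein, read -2.21, -2.93 and -2.35 in KO vehicle and 2.04, 2.59 and 1.68 in control IL-4 arrays (difference -4.60). Control IL-4 cells stood 4.53 above control vehicle cells for it, and KO vehicle cells -0.08 from them. Hebp2, a heme-binding protein, differed by -5.26, and its probe was above background on 1 of 3 KO vehicle arrays. Ppp1r3c, a glycogen-targeting subunit of a protein phosphatase, was at least 5.55-fold lower and Cst7, the protease inhibitor cystatin F, at least 6.97-fold lower in KO vehicle cells. Flt1, a receptor for vascular endothelial growth factor, differed by -4.35 and by -4.81 and -3.71 on 2 further probes, but by -0.108 and -0.0325 on another 2. Serpina3g, a serine protease inhibitor, differed by -3.85 (adjusted p = 0.0117), with a wide spread in control IL-4 arrays of -1.08, -0.34 and 1.86, and the 2.70 by which control IL-4 stood above control vehicle was not called (adjusted p = 0.0535).

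Siglecf headed the genes that were high in KO vehicle cells. It encodes a sialic acid-binding inhibitory receptor known from mouse eosinophils and alveolar macrophages. It read 3.86, 4.15 and 2.92 in KO vehicle, -1.23, -1.88 and -1.32 in control IL-4 and -2.17 to -1.28 in control vehicle arrays, with its probe at chr7:50614417-50614476 (mm9). KO vehicle arrays were far above both other groups, which overlapped each other. KO vehicle differed from control IL-4 by 5.12 (SE 0.388, adjusted p = 1.8e-05), beside the eosinophil markers Epx, Prg2 and Il5ra that were not called. The marker Ccr3 was lower (adjusted p = 0.0298), but not called with slide as a fixed block (adjusted p = 0.0713). Of 18 tested genes of the Siglec, CD300 and paired receptor families 6 were higher and 2 lower in KO vehicle cells. The shares of all genes were 3.10% and 2.77%. The 2 lower, Siglec1 and Cd300ld, were not both called once 1 array was left out: none was called without control vehicle array 4, KO vehicle array 5 or control IL-4 array 9, 10 or 12, and 1 without KO vehicle array 6 or 7 or with slide as a fixed block. Cd300a, an inhibitory receptor, was higher by 0.80.

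Proteases and the plasminogen system were a further group. Of 27 tested genes of matrix remodelling 8 were higher and 2 lower in KO vehicle cells, with a median of 0.327. Over all genes 3.10% were higher and 2.77% lower. Mmp13, a collagenase, read 3.93, 4.31 and 2.88 in KO vehicle, against 0.29, -0.53 and 0.24 in control IL-4 arrays (difference 3.71, SE 0.389, adjusted p = 0.000139), and Mmp12, the macrophage elastase, read 4.19, 4.30 and 3.29, against 1.68, 0.67 and 1.85 (difference 2.53). KO vehicle array 7 was the lowest of its group for both, and still above every control IL-4 array. Plaur, the urokinase receptor, read 2.96, 2.92 and 2.35 in KO vehicle and 0.48, -0.39 and 0.37 in control IL-4 arrays, and differed by 2.59 and by 1.69 on its other probe. Its ligand urokinase, Plau, differed by 1.64 on the brighter probe and by -0.101 on the other. Thbs1, the matrix protein thrombospondin, was higher by 1.97 and Spp1, osteopontin, by 1.07. For Mmp13, Mmp12, Plaur, Thbs1 and Spp1, control IL-4 cells differed from control vehicle cells by -0.27 to 0.27, and none of these was called. The 2 genes lower were F10 and Adam8, and 1 of these was called without control vehicle array 4, KO vehicle array 5 or control IL-4 array 10, and none with slide as a fixed block or without KO vehicle array 6 or 7 or control IL-4 array 9 or 12.

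Among the CC chemokines, which attract leukocytes, 3 ligands were higher and 3 lower of 12 tested, against 3.10% and 2.77% of all genes. Ccl2, the main attractant of monocytes, read 4.01, 4.52 and 3.90 in KO vehicle, 1.47, 1.67 and 1.45 in control IL-4 and 0.24 to 1.16 in control vehicle arrays. KO vehicle was above both other groups on every array, and above control IL-4 by 2.61 (SE 0.232, adjusted p = 4.74e-05). Ccr1, a receptor for Ccl3 and Ccl5, read 2.0, 2.32 and 1.37 in KO vehicle, -0.45, -0.79 and -0.86 in control IL-4 and -2.15 to -1.45 in control vehicle arrays, and differed from control IL-4 by 2.60. Ccl3 and Ccl4, ligands made by activated macrophages, were higher by 1.49 and 1.06. Ccl3 read 4.90, 4.95 and 5.06 in KO vehicle, 3.71, 3.19 and 3.55 in control IL-4 and 5.07 to 5.22 in control vehicle arrays, so the control IL-4 arrays were the low group. Ccl8, Ccl5 and Ccl12 were lower in KO vehicle cells, by 3.43, 2.06 and 1.97. Ccl8 read -0.79, -0.81 and -0.26 in KO vehicle, 2.64, 2.80 and 3.01 in control IL-4 and 0.09 to 0.66 in control vehicle arrays, whereas Ccl5 read 0.82, 0.93 and 1.52, 3.00, 3.37 and 3.09, and 3.34 to 3.99. For Ccl8 the control IL-4 arrays were the high group, and for Ccl5 the KO vehicle arrays were the low one. Of 8 tested chemokine receptors 3 were higher and 2 lower, and 1 was higher without KO vehicle array 5 or control IL-4 array 9, and 1 lower with slide as a fixed block or without KO vehicle array 5 or control IL-4 array 10 or 12.

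Some genes of cholesterol handling were higher in KO vehicle cells. Apoc2, the apolipoprotein that activates lipoprotein lipase, read 5.26, 5.27 and 5.62 in KO vehicle, 2.64, 2.43 and 2.66 in control IL-4 and 3.02 to 3.55 in control vehicle arrays, and was higher than in control IL-4 cells by 2.81 (SE 0.161, adjusted p = 2.83e-06). Its neighbour Apoc1 read 0.80, 1.18 and 1.19 in KO vehicle and -2.18, -1.44 and -1.67 in control IL-4 arrays, a difference of 2.82. Abca1, which exports cholesterol, read 5.0, 4.89 and 4.58, against 3.62, 3.66 and 3.78, a difference of 1.14. These are targets of the liver X receptors, of which 7 of 19 tested were higher, or 4 under median scaling, and 1 was lower (Arl4c, by 1.23). Among all genes 3.10% were higher and 2.77% lower. The target Abcg1 differed by -0.37 and was not called. Of 25 genes of sterol synthesis and uptake 10 were higher and none lower (1 had a lower value at an unadjusted p under 0.05), with a median of 0.36. Without KO vehicle array 5, KO vehicle array 6 or control IL-4 array 9 the genes called higher were 6, 5 and 6. Stard4, a cholesterol transport protein, was higher by 0.96.

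Genes for the uptake and breakdown of dying cells included some of the same members. Mfge8, which bridges apoptotic cells to phagocytes, read 5.74, 5.91 and 5.45 in KO vehicle, 4.10, 3.34 and 3.74 in control IL-4 and 3.13 to 3.64 in control vehicle arrays, a difference from control IL-4 of 1.98 (adjusted p = 0.000421). The KO vehicle arrays stood above the other groups. Mertk, a receptor tyrosine kinase for dying cells, was higher by 1.18, Ctsc and Ctsl, lysosomal cathepsins, by 1.30 and 1.01, and the scavenger receptors Msr1 and Scarb1 by 0.81 and 0.80. Of 41 tested lysosome and phagocytosis genes 9 were higher and 1 lower, against 3.10% and 2.77% of all genes, with a median of 0.0393. The 1 lower, Axl, was not called without KO vehicle array 5 or 6 or control IL-4 array 9 or 10. Of the 24 macrophage identity genes 7 were higher and 3 lower. Itgam, the integrin chain CD11b, read 3.00, 3.19 and 2.70 in KO vehicle and 1.65, 1.23 and 1.57 in control IL-4 arrays (difference 1.48), and Fcgr2b, the inhibitory Fc receptor, was lower by 1.68. Fcgr2b stood above control vehicle by 0.91 in KO vehicle and by 2.59 in control IL-4 cells.

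In another set of genes higher in KO vehicle cells, the control IL-4 arrays were below both other groups. The paired receptors Pilra, which inhibits, and Pilrb1 and Pilrb2, which activate, lie beside each other on chromosome 5. Pilra read 2.49, 2.43 and 2.78 in KO vehicle, -0.91, -1.48 and -1.36 in control IL-4 and 1.08 to 1.37 in control vehicle arrays, and was higher than in control IL-4 by 3.82 (SE 0.181, adjusted p = 7.66e-07). Pilrb1 read 3.72, 3.61 and 4.19 in KO vehicle, 0.64, 0.71 and 0.49 in control IL-4 and 3.24 to 3.58 in control vehicle arrays, a difference of 3.23. All KO vehicle arrays were above all control IL-4 arrays for both, as for 2412 of all 20546 genes. Pilrb2 was higher by 3.80, with its probe above background on 1 of 3 control IL-4 arrays. The windows before the Pilra and Pilrb1 starts are shown because the genes are near copies there and share a match to the other motif searched, GAAANNGAAA, the core of elements that interferon regulatory factors bind. The match is in capitals and begins 178 bases before the Pilra start and 232 bases before the Pilrb1 start (RefSeq, GRCm38.p6, chr5:137836279-137836528 and chr5:137858050-137858299, both on the minus strand).
Pilra: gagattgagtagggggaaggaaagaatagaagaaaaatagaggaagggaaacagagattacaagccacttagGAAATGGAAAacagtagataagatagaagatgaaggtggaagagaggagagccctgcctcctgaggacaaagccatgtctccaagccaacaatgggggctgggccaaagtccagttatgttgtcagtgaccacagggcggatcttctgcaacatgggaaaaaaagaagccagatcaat
Pilrb1: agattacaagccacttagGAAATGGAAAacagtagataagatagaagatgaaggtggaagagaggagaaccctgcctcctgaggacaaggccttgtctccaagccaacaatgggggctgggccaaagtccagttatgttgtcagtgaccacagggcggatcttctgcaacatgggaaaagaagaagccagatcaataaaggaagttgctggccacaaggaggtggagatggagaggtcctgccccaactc
Over 196 aligned bases 98% were identical, and the Pilrb1 and Pilrb2 windows were identical at 98.4% of 250 bases. Sequence this close makes it uncertain which member a probe reads where the transcripts are as alike. The motif, searched on both strands, was in 2.98% of all windows, or for 3.46% of genes. Of the 12 genes with the largest differences higher in KO vehicle 10 have a window, and 4 hold it (Pilra, Pilrb2, Mmp13 and Pilrb1). The Pilra, Pilrb1 and Pilrb2 windows are near copies with the same match, so these are not separate matches. None of the windows printed here holds a match of both motifs.

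Some receptors for bacterial products had the same order of groups. Fpr1, a receptor for formylated bacterial peptides, read 0.66, 1.11 and 1.87 in KO vehicle, -1.38, -2.43 and -2.66 in control IL-4 and 0.56 to 0.96 in control vehicle arrays, with a difference of 3.37 (SE 0.351, adjusted p = 0.000133). Fpr2, its relative, read 0.79, 1.04 and 2.20, -1.21, -1.09 and -1.09, and 1.76 to 2.60 (difference 2.47), but its other probe gave 0.306 and was not called. Cd14, the co-receptor for lipopolysaccharide, read 4.24, 4.22 and 4.58 in KO vehicle, 2.08, 2.15 and 2.11 in control IL-4 and 4.07 to 4.41 in control vehicle arrays. Control IL-4 was the low group for each, and Cd14 was higher in KO vehicle by 2.23 (SE 0.147, adjusted p = 6.13e-06) and differed from control vehicle by 0.07 (adjusted p = 0.968). Tlr2, a receptor for bacterial lipoproteins, was higher by 1.25 and its partner Tlr1 lower by 0.73. Of 18 tested pattern and peptide receptors 5 were higher and 1 lower, or 2 lower without control IL-4 array 9. Over all genes 3.10% were higher and 2.77% lower. Of 19 tested genes of classical inflammatory activation 4 were higher and 2 lower, and 2 were higher without control IL-4 array 9. Tnf differed by 0.27 (adjusted p = 0.401), Il6 by -0.13 (0.909 as adjusted p) and Il1b by 0.78 (adjusted p = 0.267), and the fit called none of these.

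**Figure D3:**
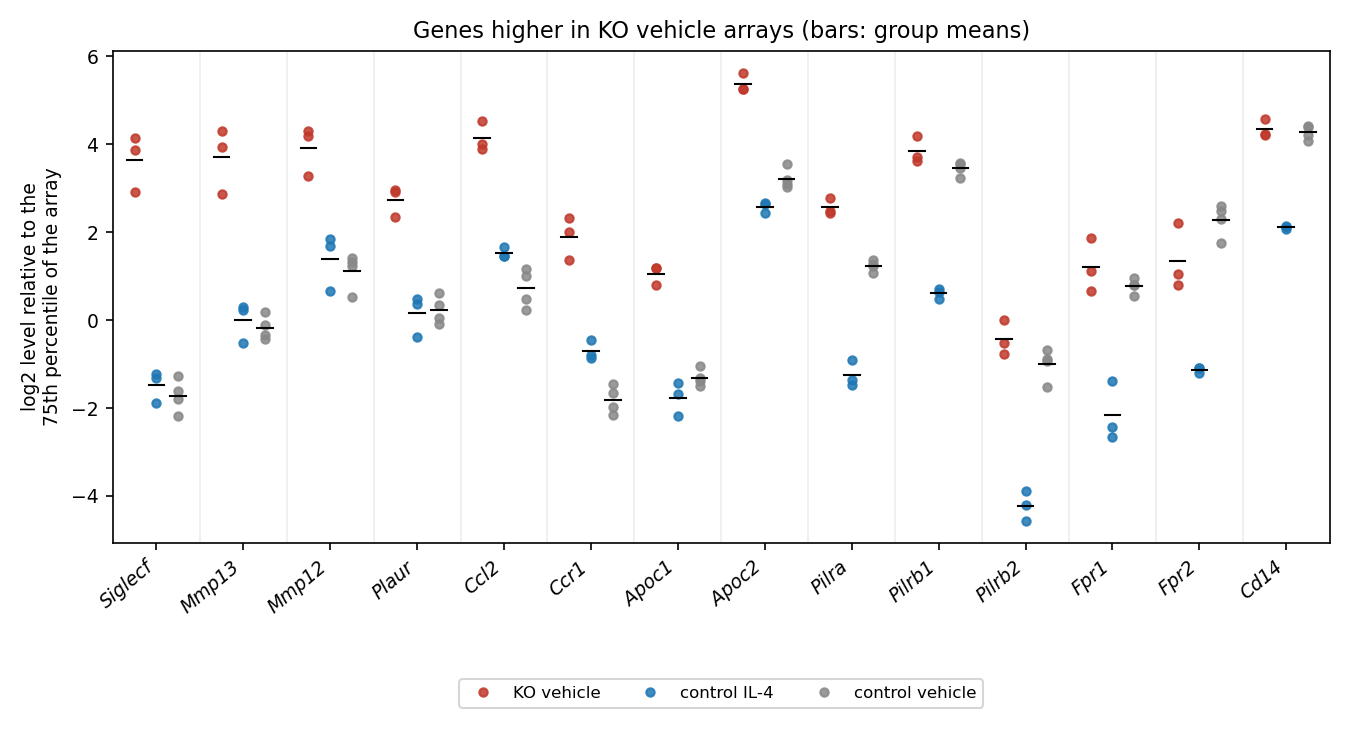
Log2 level of 14 genes higher in KO vehicle than in control IL-4 on each array, with KO vehicle, control IL-4 and control vehicle arrays as points from left to right within each gene. For Siglecf, Mmp13, Ccl2 and Ccr1 KO vehicle arrays stand above both other groups, and for Pilrb1, Fpr1 and Cd14 control IL-4 arrays stand below both.

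The genes that present antigen on MHC class II were low in KO vehicle cells, while other genes of that pathway were not called. Cd74, the invariant chain, read 2.48, 2.75 and 2.57 in KO vehicle, 6.18, 5.51 and 5.94 in control IL-4 and 4.07 to 5.29 in control vehicle arrays. KO vehicle was the lowest group on every array, below control IL-4 by 3.27 (SE 0.29, adjusted p = 4.74e-05). H2-Ab1, a class II beta chain, read 1.17, 1.29 and 1.32 in KO vehicle, 4.80, 4.11 and 4.61 in control IL-4 and 3.01 to 4.23 in control vehicle arrays, and differed by -3.24, with -2.37, -2.09 and -0.855 on its other probes. H2-Eb1 and H2-Aa were lower by 2.50 and 2.41, and these 4 were all of the 10 tested genes that were called, none being higher (0 at an unadjusted p under 0.05). Among all genes 2.77% were called lower and 3.10% higher. Ciita, the coactivator of class II genes, differed by -0.39 (95% interval -1.11 to 0.33). Fewer cells of a type and less RNA per cell cannot be told apart in these bulk samples, and the dendritic cell markers summed to 0.82 to 1.02 in KO vehicle and 0.31 to 0.95 in control IL-4 arrays.

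On MHC class I, 12 of 17 tested genes were lower and none was higher (0 at an unadjusted p under 0.05), with a median of -0.545. The shares over all genes were 2.77% lower and 3.10% higher. H2-Q8 read -0.19, -0.27 and 0.84 in KO vehicle, 3.42, 3.35 and 3.31 in control IL-4 and 2.79 to 3.27 in control vehicle arrays (difference -3.23), and H2-K1, the classical class I chain, read 5.24, 5.24 and 5.44, 6.30, 6.19 and 6.13, and 5.91 to 6.04 (difference -0.90). KO vehicle arrays were the lowest for both. The class I genes are close relatives, so a probe is uncertain as to the member. Psmb10, a subunit of the immunoproteasome that cuts the peptides, was lower by 1.23. Ly6 and MS4A family genes had 8 of 18 tested lower and none higher (0 at an unadjusted p under 0.05). Ly6a, the surface protein Sca-1, read 1.30, 1.89 and 3.02 in KO vehicle, 4.38, 4.84 and 4.27 in control IL-4 and 4.95 to 5.45 in control vehicle arrays, a difference from control IL-4 of -2.43 (adjusted p = 0.00146). KO vehicle array 7 was the highest of its group and below every control array. Ly6c2 was lower by 2.21. Only 4 members were called without KO vehicle array 5 or 6 or control IL-4 array 10 or 12.

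Some interferon-stimulated genes were lower in KO vehicle cells, by less than 2-fold for most of the list. Of 42 tested, 11 were lower and none higher in KO vehicle cells (21 lower and 0 higher at an unadjusted p under 0.05), with a median of -0.337, and the 95% interval lay within 2-fold for 35. Of all genes 2.77% were called lower and 3.10% higher, and 81.1% had an interval within 2-fold. The count lower was 3, 4, 7, 5 and 4 without KO vehicle array 5, KO vehicle array 6, control IL-4 array 9, 10 and 12, and 5 with slide as a fixed block. Ifih1, a sensor of viral RNA, was lower by 0.71, and Ifi44 by 1.27 with -0.369 on its other probe, which was not called. Ifit3, which binds viral RNA complexes, read 3.89, 3.95 and 4.24 in KO vehicle, 3.93, 4.44 and 4.44 in control IL-4 and 5.78 to 5.95 in control vehicle arrays. The first 2 groups overlapped, with a difference of -0.24 (95% interval -0.59 to 0.11), and both were below control vehicle, by 1.82 (adjusted p = 6.28e-05) and 1.58 (adjusted p = 6.05e-05). Ifit3b read 0.37, 0.65 and 1.04 in KO vehicle, 0.15, 1.09 and 0.85 in control IL-4 and 2.83 to 3.31 in control vehicle arrays, a difference of -0.01 (-0.69 to 0.68) between KO vehicle and control IL-4. The window before the Ifit3 start is shown for its 2 matches to GAAANNGAAA, which lie on the minus strand. The capitals give their plus-strand letters, TTTCACTTTC and TTTCAGTTTC, 156 and 122 bases before the start (RefSeq, GRCm38.p6, chr19:34583279-34583528, plus strand).
Ifit3: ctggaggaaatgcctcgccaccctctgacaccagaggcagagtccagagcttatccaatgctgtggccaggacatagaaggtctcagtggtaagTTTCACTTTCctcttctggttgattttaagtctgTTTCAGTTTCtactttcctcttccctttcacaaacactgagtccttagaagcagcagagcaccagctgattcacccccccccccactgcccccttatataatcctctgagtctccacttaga
The Ifit3b window holds the same 2 matches and was identical at 96.4% of 224 aligned bases, so these genes may share signal. Of the 32 tested interferon-stimulated genes with a window 43.8% held the motif, with Ifit3 and Ifit3b each counted, against 3.46% of all 27025 genes with a window.

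Genes that differed from control vehicle in the same direction in both groups were taken by the size of the smaller difference, and since both differences use the same control vehicle arrays, each is given on its own. Ptgs1, the constitutive cyclooxygenase, read 1.23, 1.05 and 1.19 in KO vehicle, 2.21, 2.22 and 2.01 in control IL-4 and -2.50 to -1.95 in control vehicle arrays. Both groups were above control vehicle on every array, by 3.41 in KO vehicle and 4.40 in control IL-4, and KO vehicle was below control IL-4 by 0.99 (SE 0.168, adjusted p = 0.00393). Of 15 tested genes of eicosanoid synthesis 2 were lower (Ptgs1 and Ptgs2) and 1 was higher (Pla2g7, which breaks down platelet-activating factor, at 1.26), or 2 higher without control IL-4 array 9. Over all genes 2.77% were lower and 3.10% higher. The other Ptgs2 probe differed by -0.715 and was not called (adjusted p = 0.767). Itgax, the integrin chain CD11c, read 3.58, 3.75 and 2.62 in KO vehicle, 5.18, 4.92 and 5.21 in control IL-4 and 0.80 to 1.56 in control vehicle arrays (difference -1.79). Ccl7, a monocyte attractant, read 2.16, 2.72 and 2.15, 1.57, 1.74 and 1.56, and -1.19 to -0.59. For Ccl7 the KO vehicle arrays did not overlap the control IL-4 arrays, but the difference of 0.72 was not called (adjusted p = 0.0667). Mcf2l, a guanine nucleotide exchange factor, was lower by 1.87, with -0.33 on its other probe.

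Egr2, a transcription factor that IL-4 induces, read 6.19, 6.20 and 5.65 in KO vehicle, 6.81, 6.70 and 6.79 in control IL-4 and 3.65 to 4.24 in control vehicle arrays. Both groups were above control vehicle, by 1.97 and 2.73. The difference between them, -0.76, was called (adjusted p = 0.0235) but not without KO vehicle array 7 (adjusted p = 0.0799) or control IL-4 array 9 (0.074), 10 (0.057) or 12 (0.0818), and not with slide as a fixed block (adjusted p = 0.0993). Il1rl2, the receptor for interleukin-36, was higher in KO vehicle than in control IL-4 by 1.30 (adjusted p = 0.0226), a call lost without KO vehicle array 5 (0.0849) or 6 (0.0965) or control IL-4 array 9 (0.0595) or 10 (0.0918). Among genes below control vehicle in both groups, Cd300e, an activating receptor, differed between KO vehicle and control IL-4 by 0.23 (95% interval -0.94 to 1.40), Isg20, an RNase induced by interferon, by -0.05 (-0.64 to 0.54) and Slc13a3, a transporter of dicarboxylates, by 0.91 (0.13 to 1.70, adjusted p = 0.218). None of these differences was called. With 3 arrays in a group each interval spans a range of possible differences, and that of Slc13a3 lies wholly on the higher side.

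**Figure D4:**
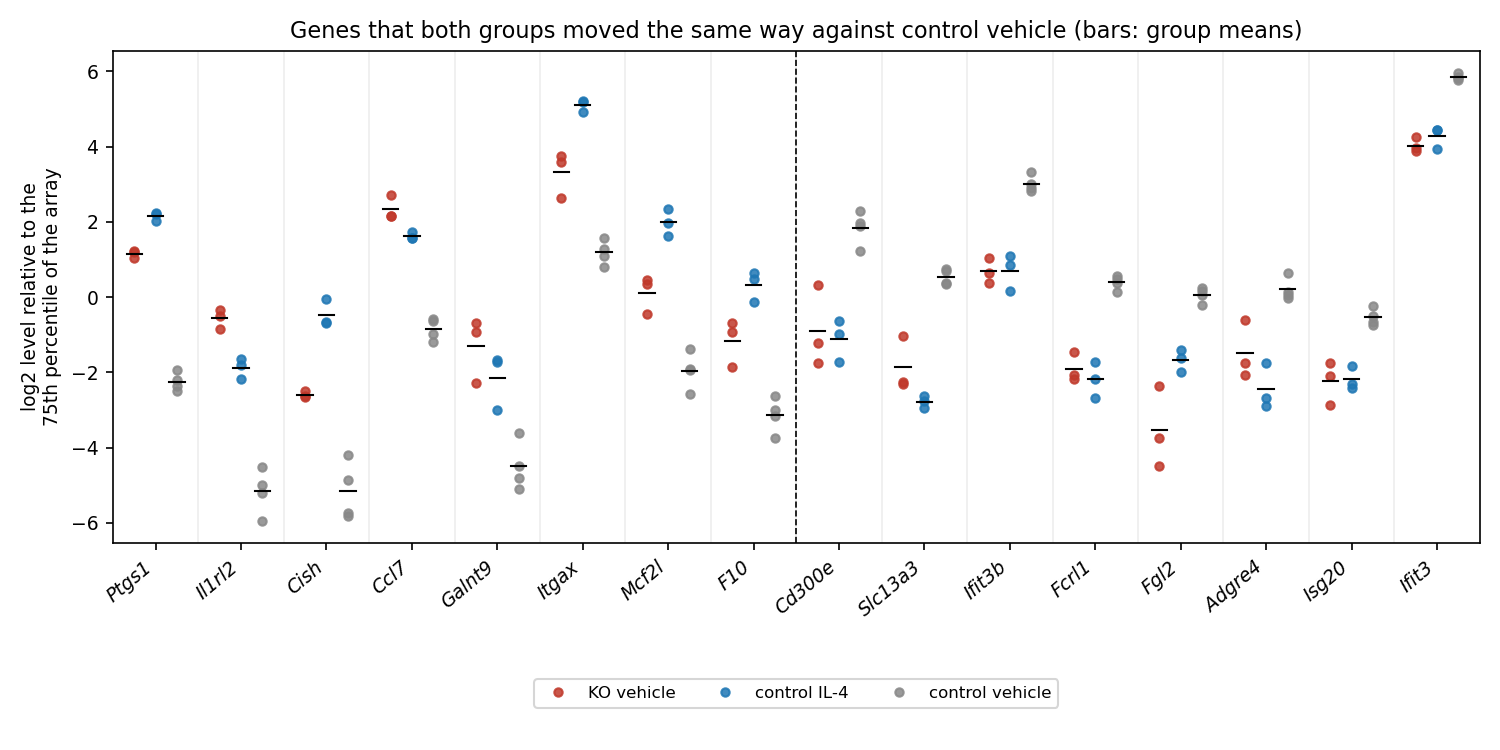
Log2 level of genes that differed from control vehicle in the same direction in KO vehicle and in control IL-4, on each array, with KO vehicle, control IL-4 and control vehicle arrays as points from left to right within each gene. Genes left of the dashed line, such as Ptgs1 and Ccl7, are above control vehicle in both groups, and genes right of it, such as Ifit3 and Ifit3b, are below it in both.

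Other genes differed from control vehicle in opposite directions, again with the same control vehicle arrays in both differences. Clec4n stood 1.48 above control vehicle in KO vehicle cells and -0.88 from it in control IL-4 cells. Cav1, the coat protein of caveolae, stood at 1.05 and -1.21, Rhobtb1 at 0.85 and -1.47, and Ifitm6 at 0.84 and -1.52. The other Rhobtb1 probe differed by 1.34 between KO vehicle and control IL-4 and was not called (adjusted p = 0.0584). Cdc6, which loads the replication helicase, stood at 0.95 and -0.75 and was higher in KO vehicle than in control IL-4 by 1.69. In the other direction Dnase1l3, a nuclease for extracellular DNA, stood at -1.29 in KO vehicle and 2.24 in control IL-4, and read -3.23, -3.42 and -2.83, against -0.01, 0.90 and 0.20. Olfm1 stood at -1.08 and 1.42 and the sulfotransferase Chst7 at -1.20 and 1.37. Eya1 stood at -1.03 and 0.78, but its other probe was not called between KO vehicle and control IL-4 (-0.354).

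The lists of energy metabolism and the cell cycle held few calls, as did all genes (3.10% higher and 2.77% lower in KO vehicle cells). None of 25 tested genes of glycolysis and the pentose phosphate pathway was called by limma (4 had an unadjusted p under 0.05, and 3 were called higher with array weights), and 24 had a 95% interval within 2-fold. Gapdh, a glycolytic enzyme, read 4.46, 4.36 and 4.33 in KO vehicle and 4.29, 4.38 and 4.54 in control IL-4 arrays. None of 24 tested genes of oxidative phosphorylation was called (3 at an unadjusted p under 0.05, and 4 called lower with array weights), and all 24 intervals lay within 2-fold. Of 21 tested fatty acid oxidation genes 1 was lower, Hadhb, a subunit of the trifunctional enzyme, which read 1.45, 1.63 and 1.27 in KO vehicle and 2.11, 2.15 and 2.15 in control IL-4 arrays (difference -0.69, adjusted p = 0.00292). Of 34 cell cycle genes 1 was higher (Cdc6) and 2 were lower (Ccnd1 and Pcna), with 1 lower without KO vehicle array 6 or 7 or control IL-4 array 9, 10 or 12 and none without KO vehicle array 5. Pcna was not called with slide as a fixed block (adjusted p = 0.132). Of 15 tested genes of the corepressor complexes and other deacetylases, Hdac3 was lower and Tbl1xr1, a subunit of NCoR and SMRT complexes, was higher by 1.1 (0.816 on its other probe), and the remaining 13 were not called. Of 13 osteoclast and cell fusion genes 1 was lower, Ocstamp, which osteoclasts use to fuse, by 2.38, and 1 higher, Mmp9, by 1.94, and neither was called when only probes above background on all 6 arrays were tested. Of 19 stress and immediate early genes 5 were lower and 1 higher, among them Ddit4 and Ier3, each lower by 1.16.

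**Figure D5:**
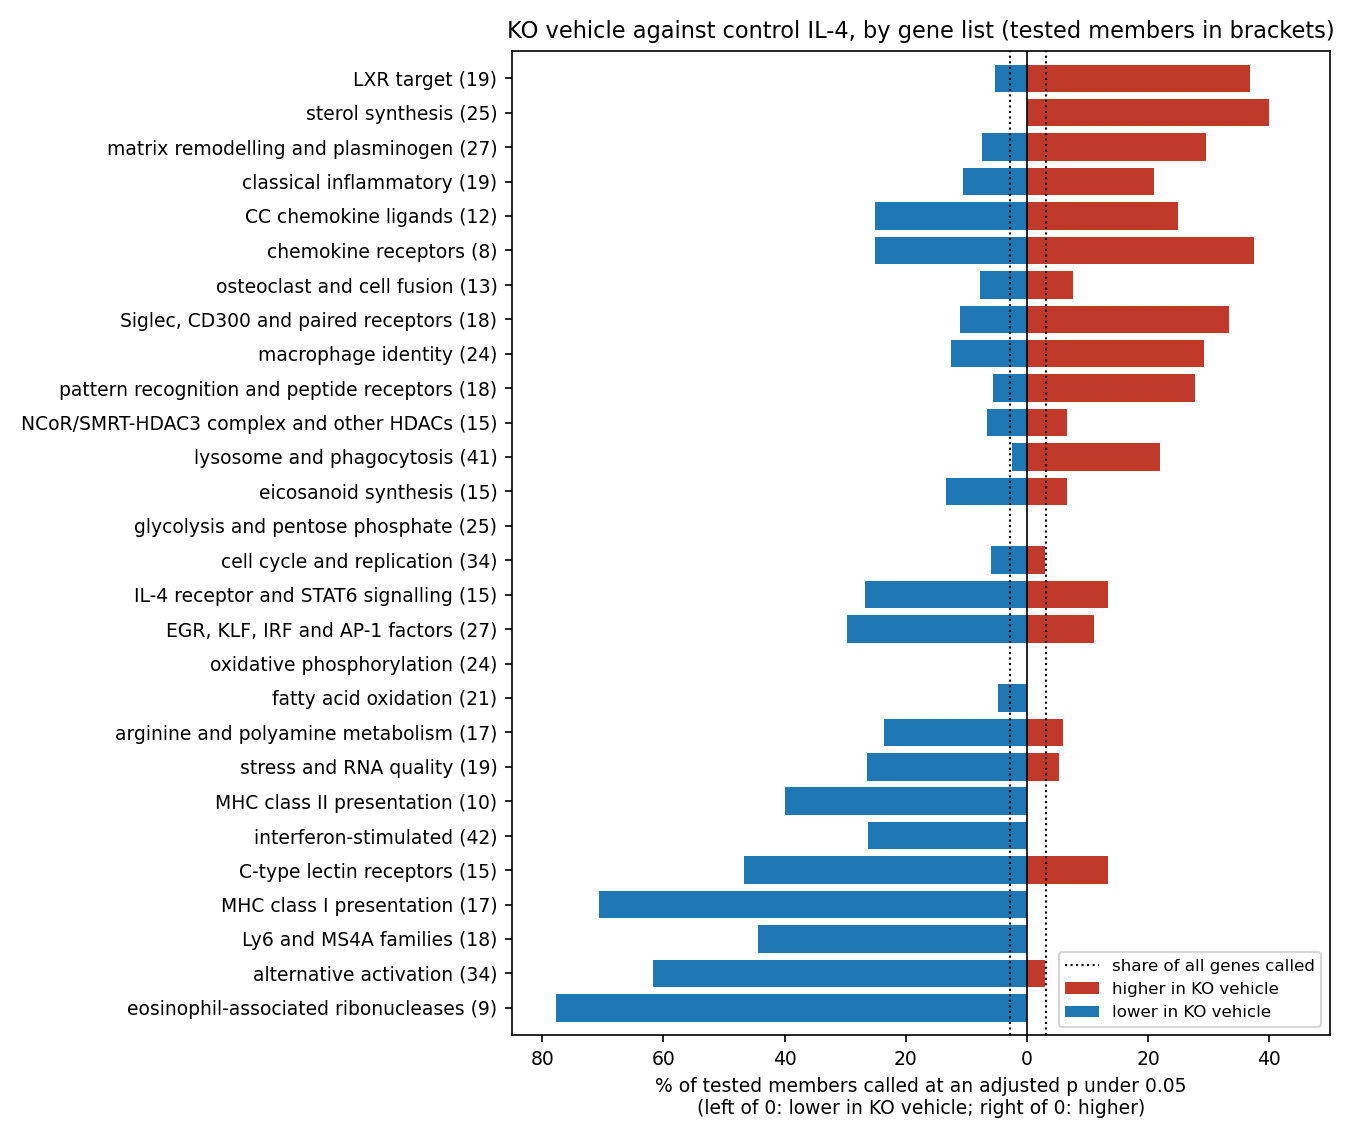
Share of the tested members of each gene list called higher or lower in KO vehicle than in control IL-4, with dotted lines at the share of all 20546 genes (3.10% higher and 2.77% lower). The lists of eosinophil-associated ribonucleases (with Rnase4 and Ang), MHC class I and alternative activation genes hold the largest shares called lower. No list of glycolysis or oxidative phosphorylation holds a call.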

How the data were processed

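Each sample was hybridised to one 1-colour Agilent array after NuGEN amplification and Cy3 labelling, per the labels' protocols. The deposited scanner files hold spot intensity, background-corrected by Feature Extraction 10.5.1.1, per the file headers, with mm9 probe coordinates. The submitters' processing notes name version 9.53 and limma. The authors' deposited value table, 39280 linear intensity values per array with medians of 181 to 181.5, served as an alternative. How it was normalized is not given in the sources used here.

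Spots for controls and those marked as outliers were left out. Of 41174 non-control probes 101 dropped out, because every spot of the probe was an outlier on some array. Each log2 intensity was set against the 75th percentile of its array. A probe entered (29059 did) if some group had it well above background throughout, and the brightest probe stood for its gene, giving 20546 genes. Gene names came from RefSeq for 80.4% of probes and otherwise from the files. Group means of all 13 arrays were fitted with limma 3.58.1 (lmFit, eBayes, R 4.3.3), two-sided, with n = 3 in each compared group, so the number of arrays limits the precision. A probe not above background on any array of a group gives only a bound, written as at least so many fold: the other group's mean against the mean, per array, of the higher of the lowest signal among probes well above background and the probe itself. The fit was tested on simulated data.

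Named genes were the 12 with the largest differences each way among called genes with no overlap between the arrays, up to 4 members per list by adjusted p, 8 each way that differed from control vehicle alike in both groups, 6 each way that differed oppositely, and 16 fixed genes. Other list members named were chosen after their values were seen. The comparison, members and lists were chosen with earlier results of these data known. KO vehicle arrays lie on slides 1, 2 and 3 and control IL-4 arrays on slides 1, 2 and 4, and as each group has an array position of its own, the effects of position and group cannot be told apart. All 1205 called genes had the same sign within slides 1 and 2, but they were called on these same arrays, so the sign is no separate support. Alternatives were other normalizations, filters, probe rules, variance models, slide blocks, array weights, sets of arrays and a minimum difference.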

Additional observations from a re-analysis of the deposited data

Results flagged for a closer look

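Control vehicle array 4 stood apart from the other 3 control vehicle arrays in the mean intensity of its negative control spots, which was 131.3 against 56.2 to 68.9. The gap to the nearest array was 0.832 of the range of the group, above Dixon's critical value for 4 samples, a mark that chance gives to about 1 in 20 groups. Of spots on that array 56.2% were well above background. It is no member of the compared groups and enters through the shared variance and the values set beside them. Without it 559 genes were higher and 509 lower in KO vehicle than in control IL-4 cells. None of 43 genes examined on the control vehicle arrays had an array so far from the rest.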

How the results depend on the processing

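Of 140 named genes 113 were called, 93 of these under every alternative that tested them (18 or 19), and none reversed. Of 72 further list members called, 23 were called under every alternative that tested them and none reversed. The counts, 636 higher and 569 lower in KO vehicle, moved over 1.5 times under some settings. Median scaling gave 287 and 377, with 43.2% of calls higher against 52.8%. The 6 compared arrays alone gave 322 and 353, array weights 1794 and 1582, and a log2 difference of at least 1 as well 168 and 204. Leaving out 1 array gave 360 to 559 higher and 360 to 509 lower. Lists moved too: interferon-stimulated genes lower were 26 with array weights and 4 in the 6 arrays, sterol genes higher were 15 with array weights and 5 under median scaling, and MHC class I genes lower were 7 under median scaling. The cause was not tested, except that the 6 arrays leave fewer residual degrees of freedom. The median difference over all genes was -0.0355 under median scaling and 0.0188 as reported. Slide as a fixed block gave 487 and 395, with 809 of the 1205 calls kept. No paired analysis was possible because the groups compared share no replicate numbers, and the block used was the slide, since slides 1 and 2 hold both groups. Signal over background limits Retnla, Ear3, Ppp1r3c and Cst7 in KO vehicle cells to bounds. Genes neither called nor bounded within 2-fold numbered 3230, and for these a difference was not detectable with 3 arrays in a group.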
